A study of Homo sapiens with 8 samples.

Results

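The epidermal growth factor (EGF) receptor family and 6 of its ligands, 10 genes chosen by symbol, were read out of an expression table of 63816 gene entries made by RNA-seq from 8 samples labelled as Caco-2, a human colorectal adenocarcinoma line. The receptors were EGFR, ERBB2, ERBB3 and ERBB4, and the ligands were AREG, EREG, HBEGF, TGFA, BTC and EGF. Each symbol stood on 1 entry of the table. All 8 samples were cells after stable transfection with the expression vector pcDNA3.1, which was empty in 4 samples and carried full-length SIGLEC12, the gene for Siglec-XII, in the other 4. Transfected cells of both kinds were kept under G418, and stable clones were picked according to the series, with no untransfected cells analysed here. Empty vector and Siglec-XII cells each come from their own transfection and selection, and what those steps changed cannot be told apart from what Siglec-XII changed. The series names fewer cultures than 4 a group and the methods name technical replicate libraries, so p-values measure only the spread between these samples, which may be technical.

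Receptors of this family are tyrosine kinases that pair at the cell surface when a ligand binds. EGFR and ERBB4 bind ligand and signal through an active kinase, ERBB2 has no known ligand of its own and serves as the preferred partner, and ERBB3 binds neuregulins but has a very weak kinase. The EGF-like ligands are made as membrane-anchored precursors that metalloproteases cut free. Activated receptors feed the RAS to ERK cascade and the PI3K to AKT pathway, and in colon epithelium EGFR signalling is known for its part in crypt cell growth and as a drug target in colorectal cancer. ERK activity was also followed by immunoblot in the study, and the receptors and ligands stand upstream of ERK.

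The values were log2(TPM + 1), where TPM gives a gene's share of all transcripts of a sample after correction for length, so that levels can be compared between genes. Fold changes below are differences on this log2 scale and understate the change of genes of low level. SIGLEC12 itself was at 0.0795 ± 0.0342 TPM (SD, n = 4) in the empty vector samples and at 1667 ± 71.3 TPM (SD, n = 4) in the Siglec-XII samples, as the labels of all 8 samples require. Of 12 markers of colon epithelium, only CDX1 and CDX2 reached 1 TPM in at least 4 samples, and KRT20, FABP1 and PHGR1 were listed at 0 in every sample. VIL1 and HNF4A, also on this list, had highest log2 levels of 1.20 and 0.23. All 5 general epithelial markers and 11 of 15 trophoblast markers passed the same filter, the latter with GATA3 (402 TPM in the empty vector samples), VGLL1 (180) and TFAP2C (158). So did 5 of 7 fibroblast markers, the highest of them COL1A1 (46.1 TPM in the empty vector samples), and 2 of 5 blood cell markers. Passing the filter thus did not set the trophoblast list apart, but the summed levels differed. In the empty vector samples fibroblast markers summed to 70.7 to 86.8 TPM and blood cell markers to 1.83 to 3.06 TPM. The trophoblast markers summed to 1892 to 1963 TPM in the same samples. ERVW-1, ERVFRD-1 and PLAC1 passed it near 1 TPM (1.40, 1.33 and 0.970 in the empty vector samples). Of the trophoblast markers of hormone synthesis, HSD3B1 was at 344 TPM in the empty vector samples, CYP19A1 at 4.25 and CGA at 0.982 TPM, and CGB3, CGB5 and CGB8 did not pass the filter. Most of the 12 colon markers were thus listed at 0 or under 1 TPM in most samples of cells labelled as a colorectal line. The identity of the line was not tested, and all levels below are those of cells so labelled. The summed TPM of the marker lists differed between the groups without overlap for 3 lists, and overlapped for the fibroblast and blood cell lists. Among single tested entries, 9.17% were higher and 1.68% lower with Siglec-XII without overlap. The colon sum rests mostly on CDX1 and CDX2 and the trophoblast sum on XAGE2, GATA3 and HSD3B1, so neither shows a shift of its whole list. The general epithelial sum rests mostly on KRT8 and KRT18. Of that list EPCAM and KRT18 overlapped between the groups, and KRT8, KRT19 and CDH1 did not. Colon markers summed to 163 to 186 TPM with the empty vector and 190 to 215 TPM with Siglec-XII, general epithelial markers to 8257 to 9230 and 9840 to 10218 TPM, and trophoblast markers to 1892 to 1963 and 1797 to 1821 TPM. Their part in the results on the receptors and ligands was not tested, and in such bulk samples fewer cells of a type and less RNA per cell cannot be told apart.

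Receptor transcripts outweighed ligand transcripts, with a summed TPM 8.45 to 12.9 times as high in the 8 samples. Above 1 TPM were 3 receptors and 2 ligands, and the other 5 members were below it. ERBB2 stood first with a mean of 38.6 TPM over the 8 samples, followed by EGFR with 23.1, ERBB3 with 15.4, HBEGF with 4.36 and AREG with 2.11 TPM. These 5 genes passed the filter for testing, which asked for 1 TPM in at least 4 samples, and each of them was above 1 TPM in all 8 samples. TGFA (0.30 TPM), ERBB4 (0.228), EGF (0.195), EREG (0.139) and BTC (0.119) reached 1 TPM in 0 samples. Among the 15590 entries that passed the filter, 26.1% had a higher mean TPM than ERBB2, 37.8% than EGFR, 47.4% than ERBB3, 72.9% than HBEGF and 85.8% than AREG.

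The order was ERBB2, EGFR, ERBB3, HBEGF and AREG in each of the 8 samples. The range of ERBB2 over the samples, 34.7 to 44.7 TPM, did not overlap that of EGFR, 18.2 to 27.6 TPM. EGFR and ERBB3 overlapped in range, since ERBB3 ran from 10.6 to 19.6 TPM, although EGFR was the higher of the pair in 8 of 8 samples. HBEGF lay below every receptor value but ERBB4, and AREG, at 1.44 to 2.70 TPM, lay below every HBEGF value. Among the 5 genes under 1 TPM all neighbours in the order overlapped in range.

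**Figure D1:**
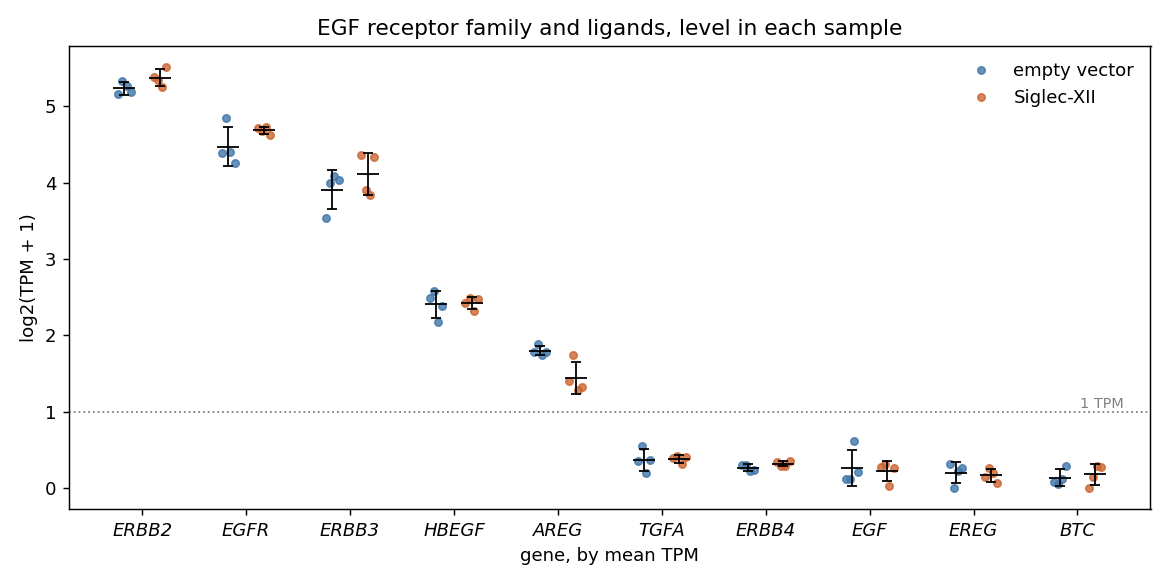
Level of each member in each sample as log2(TPM + 1), with empty vector samples in blue and Siglec-XII samples in orange, and the mean and SD of each group (n = 4) as black bars. The dotted line marks 1 TPM: 5 genes lie above it in all 8 samples and 5 lie below it in all 8, and AREG is the 1 gene among the former whose groups do not overlap.

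The question for each member was whether its level differed with Siglec-XII. It was tested with limma over all 15590 entries. At a Benjamini-Hochberg adjusted p under 0.05, 0 of the 5 tested members were called, where 0.648% of all tested entries were, 0.34% higher and 0.308% lower with Siglec-XII. Of these called entries 52.5% were higher, a share that became 29.3% with equal upper quartiles, 32.6% with quantile normalization, 33.3% with the most abundant entries left out and 29.7% with the length trend removed. At an unadjusted p of 0.05 or less 1 of the 5 was called, AREG, which was lower, against 16.5% of all entries in either direction and 2.61% in the lower direction. Fold changes of the 3 tested receptors and of HBEGF were above 0, as were 68.1% of those of all entries, and the median log2 fold change over all entries was 0.07.

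AREG encodes amphiregulin, a ligand of EGFR alone. In the empty vector samples it was at 2.45, 2.70, 2.36 and 2.44 TPM in replicates 1 to 4, and in the Siglec-XII samples at 1.65, 2.35, 1.44 and 1.51 TPM. Every Siglec-XII sample was below every empty vector sample, but Siglec-XII replicate 2, at 2.351 TPM, was separated from the lowest empty vector sample, at 2.357 TPM, by a gap of only 0.002 on the log2 scale. Without overlap in the lower direction were 1.68% of all tested entries. Mean AREG was 2.49 ± 0.149 TPM (SD, n = 4) in empty vector samples and 1.74 ± 0.418 TPM (SD, n = 4) in Siglec-XII samples, 0.698 times as high. Its log2 fold change was -0.36 with a 95% interval from -0.66 to -0.06 (limma, SE 0.13, unadjusted p = 0.0226, adjusted p = 0.230). Of all tested entries 2.64% had a lower fold change. The difference thus failed the correction for the number of genes tested. With a pseudocount of 0.1 in place of 1 the fold change was -0.52. Its unadjusted p was above 0.05 without empty vector replicate 2 (0.0542), without Siglec-XII replicate 3 (0.0612) and without Siglec-XII replicate 4 (0.0566), and its adjusted p ran from 0.188 to 0.453 over the 17 alternatives in which it was tested.

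HBEGF encodes heparin-binding EGF-like growth factor, a ligand of EGFR and ERBB4. Its levels were 4.62, 4.96, 3.50 and 4.24 TPM in empty vector replicates 1 to 4 and 4.36, 4.64, 4.001 and 4.55 TPM in Siglec-XII replicates 1 to 4. The Siglec-XII values lay inside the range of the empty vector values. The log2 fold change was 0.02 with a 95% interval from -0.23 to 0.27 (limma adjusted p = 0.945). It was below 0 in 6 of 17 alternatives, with -0.03 for quantile normalization, for equal upper quartiles and for the removal of the trend with transcript length.

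Because both ligands were read in the same samples, their ratio does not change with a scaling factor common to all genes of a sample. Scalings that act by level or by transcript length could still change the ratio, which was not tested. The TPM of HBEGF divided by that of AREG was 1.88, 1.83, 1.49 and 1.74 in the empty vector samples and 2.64, 1.97, 2.77 and 3.02 in the Siglec-XII samples. It was thus higher in every Siglec-XII sample, with means of 1.74 ± 0.173 and 2.60 ± 0.449 (SD, n = 4). This ratio was chosen after the values were seen and was not tested. HBEGF had a log2 fold change of 0.02, so the ratio mostly restates the difference in AREG and is not separate evidence.

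The upstream sequences of these 2 ligand genes are shown because they were the expressed ligands and AREG was the member that was separated between the groups. They are the 250 bases before the start in the RefSeq promoter table (GRCh38.p14), in which 9 of the 10 members were found (the entry not matched was ERBB3). AREG is on the plus strand at chr4:74444886-74445135 and HBEGF on the minus strand at chr5:140346604-140346853. Capitals mark letters of the 4 motifs searched on both strands. The TATA box was searched as TATAAA and the cAMP response element as TGACGTCA. The AP-1 site was searched as TGANTCA. The GC box was searched as GGGCGG.
AREG: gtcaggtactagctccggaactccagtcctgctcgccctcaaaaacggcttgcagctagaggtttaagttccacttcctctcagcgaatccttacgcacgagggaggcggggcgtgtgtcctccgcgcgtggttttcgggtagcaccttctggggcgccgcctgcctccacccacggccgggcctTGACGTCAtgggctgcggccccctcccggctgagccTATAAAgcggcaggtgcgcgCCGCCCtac
HBEGF: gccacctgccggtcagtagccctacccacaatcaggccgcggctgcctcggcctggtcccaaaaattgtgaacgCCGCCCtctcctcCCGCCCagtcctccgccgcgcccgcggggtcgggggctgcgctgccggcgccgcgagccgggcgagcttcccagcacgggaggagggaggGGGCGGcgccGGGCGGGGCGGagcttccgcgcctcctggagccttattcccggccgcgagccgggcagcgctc
AREG held a cAMP response element at -65, a TATA box at -29 and a GC box at -9, counted from the start. HBEGF held 5 GC boxes, of which 2 share a base, and no match to the other motifs. In windows of 300 bases, which add 50 bases after the start, a cAMP response element was present in 1.85% of 35116 promoters, a TATA box in 11.5%, an AP-1 site in 7.71% and a GC box in 45%. Of the 9 members, only AREG held the cAMP response element, and only AREG and EREG the TATA box. The share of G and C was 66.3% for AREG, 75% for HBEGF, 75.3% for EGFR and for TGFA, 60.7% for ERBB2, 59% for ERBB4, 63% for BTC, 57.7% for EREG and 46.7% for EGF, against a median of 58.7% over all promoters. These matches are descriptions of letters and not of bound sites.

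The other 4 ligands were at or near the limit of what the table shows. TGFA, which encodes transforming growth factor alpha, ran from 0.151 to 0.465 TPM with the empty vector and from 0.243 to 0.334 TPM with Siglec-XII. EGF itself was highest in empty vector replicate 3, at 0.535 TPM, and lowest in Siglec-XII replicate 3, at 0.0245 TPM. EREG, the gene for epiregulin, was listed at 0 in empty vector replicate 2 and had a highest level of 0.242 TPM. BTC, the gene for betacellulin, was listed at 0 in Siglec-XII replicate 1 and had a highest level of 0.226 TPM. In all 4 the groups overlapped with two-sided exact permutation p of 0.657 for EREG, 0.686 for BTC and more for TGFA and EGF, where the smallest p that 4 against 4 samples can give is 0.0286. Since the reads behind each value are unknown, values at this level are not read as presence or absence of the ligand.

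AREG, EREG and BTC are neighbours on chromosome 4, together with EPGN, the gene for epigen. In GRCh37 EPGN lies at 75174187 to 75182506, EREG at 75230862 to 75254466 and AREG at 75310853 to 75320722 on the plus strand, and BTC at 75669969 to 75719733 on the minus strand, within 546 kb. Of these 4 neighbours AREG alone passed the filter. EPGN was listed at 0 in all 4 empty vector samples and in 2 Siglec-XII samples, with log2 levels of 0.53 and 0.07 in the remaining pair.

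EGFR (ENSG00000146648, chromosome 7, 55086710 to 55279321 in GRCh37, plus strand) was at 19.9, 27.6, 20.1 and 18.2 TPM in empty vector replicates 1 to 4 and at 25.2, 24.6, 25.6 and 23.6 TPM in Siglec-XII replicates 1 to 4. Empty vector replicate 2 was the highest of all 8 samples, and the other 3 empty vector samples were below every Siglec-XII sample. Mean EGFR was 21.5 ± 4.20 TPM (SD, n = 4) in empty vector samples and 24.7 ± 0.846 TPM (SD, n = 4) in Siglec-XII samples. The log2 fold change was 0.21 with a 95% interval from -0.04 to 0.47 (limma unadjusted p = 0.0924, adjusted p = 0.380). Without empty vector replicate 2 it was 0.33 with an unadjusted p of 0.000668 and an adjusted p of 0.0578 by limma, which still missed the threshold. Over the 18 alternatives its adjusted p ran from 0.0578 to 0.703. The other 3 empty vector samples averaged 19.4 TPM. The fold change was 0.11 with the trend with transcript length removed, and the unadjusted p was 0.0450 with array weights.

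ERBB2 (ENSG00000141736, chromosome 17, 37844167 to 37886679, plus strand) was at 34.7, 39.4, 37.3 and 35.4 TPM in the empty vector samples and at 40.9, 39.5, 37.3 and 44.7 TPM in the Siglec-XII samples. Siglec-XII replicate 3 was the 1 sample of its group that fell inside the range of the empty vector samples. The means were 36.7 ± 2.12 and 40.6 ± 3.11 TPM (SD, n = 4), and the log2 fold change was 0.14 with a 95% interval from -0.01 to 0.29 (limma unadjusted p = 0.0659, adjusted p = 0.338). It became 0.07 with quantile normalization and 0.06 with the length trend removed. The unadjusted p was 0.0306 without Siglec-XII replicate 3 and 0.0358 without empty vector replicate 2.

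ERBB3 (ENSG00000065361, chromosome 12, 56470583 to 56497289, plus strand) varied most among the expressed receptors. It was at 10.6, 14.9, 15.9 and 15.4 TPM in the empty vector samples and at 19.6, 14.0, 13.3 and 19.2 TPM in the Siglec-XII samples. Siglec-XII replicates 1 and 4 were above all empty vector samples, whereas replicates 2 and 3 were below 3 of them. The log2 fold change was 0.20 with a 95% interval from -0.16 to 0.56 (limma adjusted p = 0.563), and it was 0.08 without empty vector replicate 1. ERBB4, the other neuregulin receptor, ran from 0.173 to 0.236 TPM with the empty vector and from 0.226 to 0.277 TPM with Siglec-XII, with overlap (two-sided exact permutation p = 0.171).

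**Figure D2:**
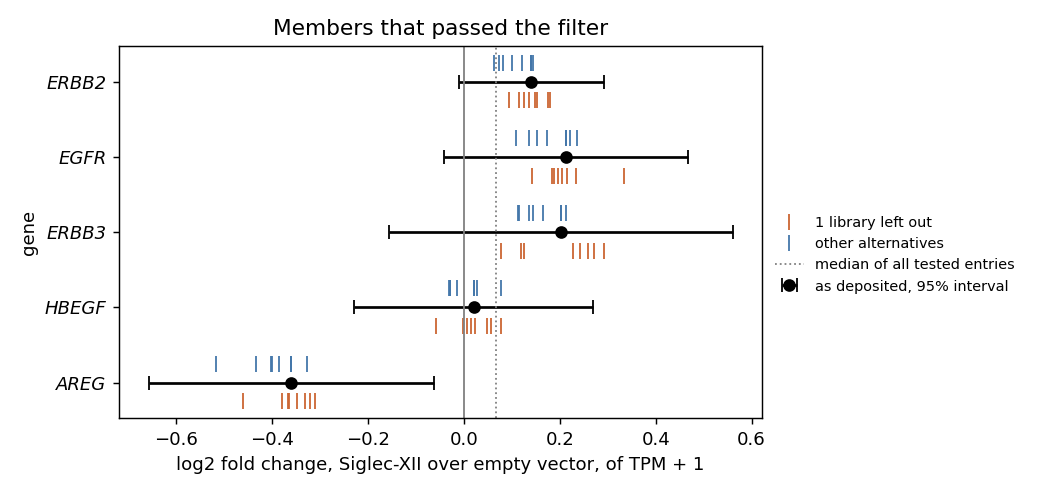
Log2 fold change of TPM + 1, Siglec-XII over empty vector, for the 5 members that passed the filter, with the 95% interval from limma in black. Orange ticks below each point are the fits with 1 library left out and blue ticks above it the other alternatives. The interval of AREG alone lies off 0, the tick of EGFR at 0.33 is the fit without empty vector replicate 2, and the ticks of HBEGF lie on both sides of 0.

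As a sum, the 4 receptors came to 65.4, 82.2, 73.5 and 69.2 TPM in the empty vector samples and to 85.9, 78.3, 76.3 and 87.8 TPM in the Siglec-XII samples. Each receptor's share of that sum overlapped between the groups. ERBB2 took 50.7% ± 2.09 (SD, n = 4) in empty vector samples and 49.4% ± 1.53 in Siglec-XII samples, EGFR took 29.4% ± 3.30 and 30.3% ± 2.82, ERBB3 took 19.6% ± 2.89 and 19.99% ± 2.74, and ERBB4 took 0.287% and 0.304%. For the ligands the sum was 7.59 ± 0.604 TPM and 6.86 ± 0.751 TPM (SD, n = 4). HBEGF took 56.8% ± 3.99 of it in empty vector samples and 64.2% ± 3.55 in Siglec-XII samples, and AREG took 32.8% ± 1.28 and 25.1% ± 3.38. The HBEGF share overlapped, with 58.9% in Siglec-XII replicate 2 and 60.05% in empty vector replicate 2, whereas the AREG share did not. The sum of the receptors divided by that of the ligands was 9.59 ± 1.02 in empty vector samples and 12.1 ± 1.41 (SD, n = 4) in Siglec-XII samples. The groups overlapped, with 9.95 in Siglec-XII replicate 2 and 10.8 in empty vector replicate 3. Sums and shares over the members are given without a test.

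**Figure D3:**
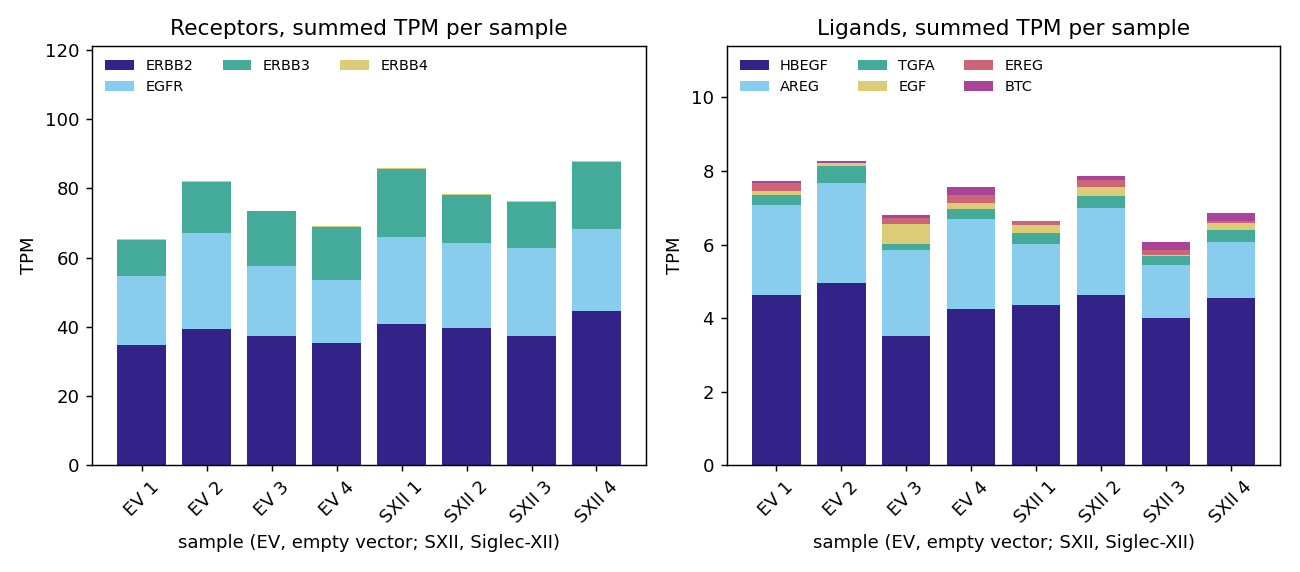
TPM of the receptors (left) and of the ligands (right) stacked by gene in each sample, with empty vector (EV) replicates 1 to 4 and Siglec-XII (SXII) replicates 1 to 4 on the horizontal axis. ERBB2 is the largest receptor segment and HBEGF the largest ligand segment in all 8 samples. The AREG segment is smaller in Siglec-XII replicates 1, 3 and 4. In replicate 2, at 2.351 TPM, it is nearly level with the lowest empty vector sample, at 2.357 TPM.

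The pattern of EGFR over the 8 samples was set beside that of the other 12080 tested protein-coding entries. By Pearson's correlation of log2(TPM + 1), used here only as a measure of likeness over 8 libraries that share their depth and scaling, the nearest were DUSP4 (0.987), EPB41L1 (0.982) and C1orf109 (0.979). Like EGFR, all 3 had their highest value in empty vector replicate 2 and their lowest in empty vector replicate 4.

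A list of 51 further genes of the pathway was read in the same fit, and 46 of them passed the filter. At an adjusted p under 0.05, 0 of the 46 were called by limma, against 0.648% of all entries. At an unadjusted p of 0.05 or less 14 were higher and 1 was lower with Siglec-XII, where 13.9% of all entries were higher and 2.61% lower. The 14 include NRG4, which passed the filter mainly through the group in which it was higher. The number at that limit, 15, was 8 with equal upper quartiles, 7 with quantile normalization and 7 with the length trend removed. In these 3 fits the share of all entries at that limit was 7.2%, 7.02% and 6.6% in the higher direction and 5.68%, 5.63% and 5.9% in the lower. The median log2 fold change of the 46 was 0.10. Groups did not overlap for 9 of the 46, all higher, against 9.17% of all entries in that direction.

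Of the remaining ligands of the family only NRG4, a neuregulin that binds ERBB4, passed the filter. It reached 1 TPM in 1 empty vector sample and 3 Siglec-XII samples, so that it entered the test mainly through the group in which it was higher. Its levels were 0.929 ± 0.157 and 1.68 ± 0.690 TPM (SD, n = 4), with a log2 fold change of 0.44 and an interval from 0.01 to 0.88 (limma adjusted p = 0.294). NRG1, the main ligand of ERBB3, ran from 0.418 to 1.27 on the log2 scale over the 8 samples with overlap between groups.

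All 6 genes for the release of ligands passed the filter. ADAM17, the protease that cuts the precursors of AREG, HBEGF and TGFA, was at 33.2 TPM in empty vector samples and 35.7 TPM in Siglec-XII samples (limma adjusted p = 0.373). ADAM10, which cuts the precursors of EGF and BTC, was at 108 and 117 TPM without overlap (log2 fold change 0.11, limma unadjusted p = 0.0209, adjusted p = 0.222). Without overlap in the higher direction were 9.17% of all tested entries. FRMD8, which stabilises the ADAM17 complex at the cell surface, had a log2 fold change of 0.28 (unadjusted p = 0.0232, adjusted p = 0.232). Among the 6 adaptors, such as GRB2, SHC1 and GAB1, 0 had an unadjusted p of 0.05 or less, against 16.5% of all entries. With so few genes a count of 0 says little.

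The RAS to ERK cascade held the most genes at that limit, with 7 of 10 higher and 0 lower, against 13.9% and 2.61% of all entries. Its median log2 fold change was 0.17. MAP2K2, which encodes MEK2, had a fold change of 0.21 (limma unadjusted p = 0.00396, adjusted p = 0.126) and HRAS 0.19 (unadjusted p = 0.00249, adjusted p = 0.109). HRAS stood on 2 entries with identical values, so its reads may be divided among copies and its level is uncertain. MAPK3, which encodes ERK1, had a fold change of -0.00 with an interval from -0.24 to 0.24. With quantile normalization, with equal upper quartiles and with the length trend removed the 7 genes became 3 of 10, where the share of all entries that were higher at that limit became 7.02%, 7.2% and 6.6%. Of the PI3K and AKT genes 3 of 8 were higher at that limit, against 13.9% of all entries, and 2 were in each of those 3 other fits. Among the 3 was PIK3CA, the catalytic subunit p110 alpha, with a fold change of 0.39 (unadjusted p = 0.00170, adjusted p = 0.102). Among PLCG1, STAT3 and SRC 0 were at that limit.

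Genes that take receptors off the surface or block them included the lowest p of the pathway. Of the 12 tested, 1 was higher and 1 lower at an unadjusted p of 0.05 or less, against 13.9% and 2.61% of all entries. CBL, the ubiquitin ligase that marks activated EGFR for degradation, was at 26.6, 28.96, 26.4 and 25.4 TPM in the empty vector samples and at 37.9, 31.2, 35.0 and 35.6 TPM in the Siglec-XII samples. The groups did not overlap, as was so for 9.17% of all tested entries in the higher direction. Its log2 fold change was 0.37 with an interval from 0.21 to 0.53 (limma unadjusted p = 0.000492, adjusted p = 0.0650). The adjusted p came under 0.05 with a mean of at least 5 TPM as the filter (0.0425), without Siglec-XII replicate 2 (0.0482) and without empty vector replicate 2 (0.0485), and ran from 0.0425 to 0.191 over the 18 alternatives. The fold change of CBL ran from 0.26 to 0.42 over the same alternatives. Its relative CBLB went the other way, from 6.76 ± 0.569 to 5.68 ± 0.513 TPM (SD, n = 4), with a log2 fold change of -0.22 (unadjusted p = 0.0451, adjusted p = 0.292). ERRFI1, a feedback inhibitor that binds the EGFR kinase and the most abundant gene of the list, was at 207 ± 15.5 and 205 ± 7.46 TPM (SD, n = 4), and its interval ran from -0.14 to 0.12. LRIG1, a transmembrane inhibitor of the receptors, did not pass the filter, with 0.760 and 1.08 TPM and no overlap between the groups (two-sided exact permutation p = 0.0286, the smallest this design can give). Any gene without overlap gets this p, and LRIG1 is not among the tested entries to which the 9.17% refers. LRIG1 also stood on 2 entries with identical values.

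**Figure D4:**
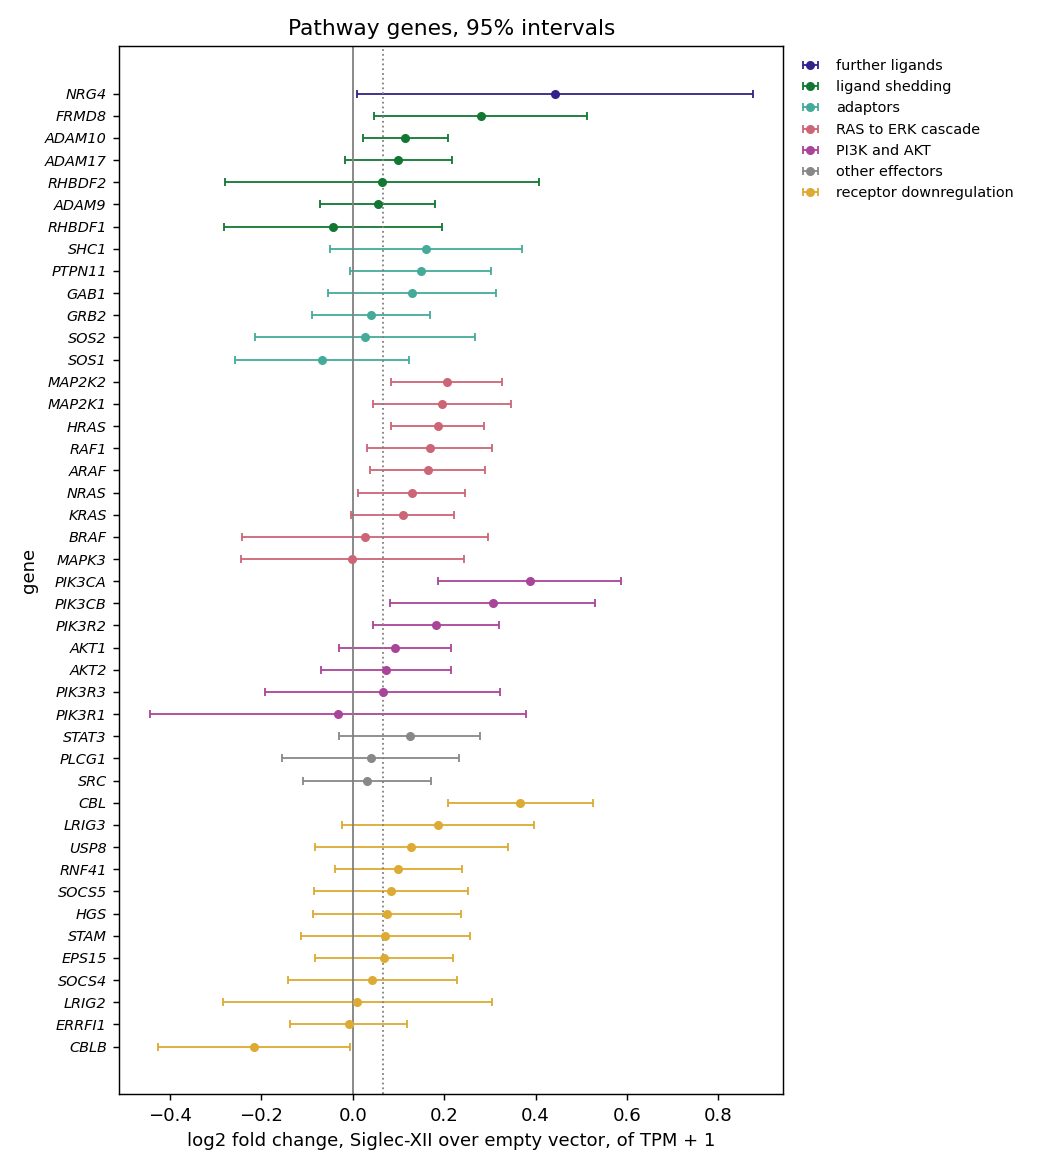
Log2 fold change of TPM + 1, Siglec-XII over empty vector, with 95% intervals from limma for 44 of the pathway genes that passed the filter, coloured by list. The dotted line is the median of all tested entries, 0.07. Points drawn for the RAS to ERK cascade lie between -0.00 and 0.21, CBL lies at 0.37 and its relative CBLB at -0.22.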

How the data were processed

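RNA-seq of 4 empty vector and 4 Siglec-XII samples was used. Per the labels libraries were made from total RNA with a strand-specific, rRNA-depleting kit, whereas a kit for mRNA is given in the study's methods. The authors quantified reads with kallisto (version 0.45.0 in the submitters' processing notes) against human build hg19 and deposited 1 table of log2(TPM + 1), which was used as deposited. TPM keeps no library size, so the reads behind each value are unknown and no count test or counting interval was possible. Low values carry more error, and the study's methods name featureCounts for gene-level counts, which were not used here, but not how the TPM of transcripts became those of genes.

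The 2 groups were tested by limma 3.58.1 under R 4.3.3 (lmFit, eBayes with trend, Benjamini-Hochberg adjustment) over the 15590 entries with at least 1 TPM in at least 4 samples. The fit was tested on simulated data. For genes under the filter an exact permutation test, two-sided, was run over all 70 labellings. GRCh37 positions came from GENCODE by gene ID, and promoters from RefSeq (GRCh38.p14). Figures were drawn with matplotlib 3.10.9.

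Members and lists were chosen with earlier results of these data known. By the rule for names, the text gives all 10 members, SIGLEC12, genes of the fixed lists with the lowest p in each direction, and the 3 entries most like EGFR. Other list genes, among them ADAM17, MAPK3, ERRFI1, NRG1, EPGN and LRIG1, were named after their values were seen. Alternatives were another pseudocount (0.1), 2 other filters, 3 other scalings, the replicate block, each library left out, eBayes without trend, array weights and removal of the trend with the length of the longest annotated transcript. Of the tested pathway genes, 2 enter the counts but are not reported singly here.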

Additional observations from a re-analysis of the deposited data

Results flagged for a closer look

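In 112 groups of 4 samples, over the members and the tested pathway genes, 7 held a sample whose gap to the nearest other, divided by the range of the group, was above Dixon's critical value at the 95% level, where chance flags about 1 in 20 groups. ERBB3 was at 3.53 in empty vector replicate 1, with the other 3 samples between 3.99 and 4.08 on the log2(TPM + 1) scale. EGF was at 0.035 in Siglec-XII replicate 3, with the others between 0.27 and 0.32. On the same scale, empty vector replicate 2 was apart for SOS2 (3.09), EPS15 (4.96) and ERRFI1 (7.85). Siglec-XII replicate 4 was apart for HRAS (6.27) and PIK3R2 (4.21). For EGFR, empty vector replicate 2 was the highest sample, but its gap did not reach that limit.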

How the results depend on the processing

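Under all 18 alternatives 0 members had an adjusted p under 0.05. AREG was lower in the 17 in which it was tested, and EGFR, ERBB2 and ERBB3 were higher in 18. AREG and HBEGF were left untested by the filter on a mean of at least 5 TPM. The 101 entries with an adjusted p under 0.05 became 54 with eBayes without trend, 51 with no filter and 64 with the length trend removed, and 49 (without empty vector replicate 3) to 159 (without empty vector replicate 2) with 1 library left out. Members at an unadjusted p of 0.05 or less were 2 with array weights and 0 with a mean of at least 5 TPM, and 0 to 2 with 1 library left out: 0 without Siglec-XII replicate 4 and 2 without empty vector replicate 2. At that limit 14.6% of all entries were higher and 3.1% lower with array weights, and 17.4% and 2.76% with that filter. The shares were 10.1% and 2.58% without Siglec-XII replicate 4 and 16.7% and 2.72% without empty vector replicate 2. Pathway genes with an adjusted p under 0.05 were 1, CBL, with a mean of at least 5 TPM, and 0 to 1 with 1 library left out. Pathway genes at an unadjusted p of 0.05 or less were 8 with equal upper quartiles and 7 with quantile normalization or with the length trend removed. The shares of all entries in these fits are given with the pathway genes above. The cause of these changes was not tested. Samples with the same replicate number did not visibly deviate together (correlations of -0.07 to 0.06, across genes). This shows no pairing by number but cannot exclude one. With the replicate block 69 entries, 0 members and 0 pathway genes had an adjusted p under 0.05. Not knowing the reads per gene limits every statement on genes under 1 TPM.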
